A study of Mus musculus with 59 samples.

Results

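The clustered protocadherins were followed in cortex and hippocampus of mice heterozygous for Mrpl40, for Slc25a1 or for both. Members were all rows of the count table whose symbol belongs to the Pcdha, Pcdhb or Pcdhg families: 58 of 57180 gene rows, 14 in the alpha cluster, 22 in the beta cluster and 22 in the gamma cluster. The 58 rows carry 57 symbols, since Pcdha11 stands on 2 rows, ENSMUSG00000007440 and ENSMUSG00000102206. In the GENCODE vM21 annotation of GRCm38, which is not the build of the deposited counts, the first of these rows starts nearest to the gene RefSeq calls Pcdha10 and the second nearest to its Pcdha11, so each is named here with its identifier.

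Clustered protocadherins are cell-surface adhesion proteins that bind their own kind on the opposite membrane, and neurons use the combination they display to tell their own branches from those of other cells. Each alpha and gamma variable exon has its own promoter and is spliced to constant exons that the whole cluster shares, whereas each beta gene encodes a whole protein in 1 exon. Promoters of most members are chosen at random in single neurons, under the control of CTCF, cohesin and DNA methylation, while the C-type members at the ends of the alpha and gamma clusters are expressed more broadly.

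Poly(A) RNA of 30 male mice was sequenced in 59 libraries, 30 of cortex and 29 of hippocampus, and 29 animals gave both tissues. Wild type mice (Mrpl40 +/+, Slc25a1 +/+) gave 9 cortex and 8 hippocampus libraries. Slc25a1 het mice (Mrpl40 +/+, Slc25a1 -/+), Mrpl40 het mice (Mrpl40 -/+, Slc25a1 +/+) and double het mice (Mrpl40 -/+, Slc25a1 -/+) gave 7 libraries per tissue each. Both genes lie in the mouse counterpart of the region lost in the human 22q11.2 microdeletion, Slc25a1 encoding the mitochondrial citrate carrier and Mrpl40 a protein of the mitochondrial ribosome. Age, strain and the kind of allele are not given in the labels, and animals carry separate identifiers. Library totals ranged from 21443017 to 32120906 counts, of which members together held 438 to 546 CPM (counts scaled to the library total) in cortex and 467 to 554 in hippocampus.

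The level of Slc25a1 went against the label in 6 animals, in every library they gave. It was 20.9 to 27.4 CPM (here and below with TMM factors in the library size) in 4 animals labelled Slc25a1 het or double het and 11.1 to 12.7 CPM in 2 animals labelled wild type. Among the other libraries it was 21.8 to 26.2 CPM where the label gives Slc25a1 +/+ and 10.8 to 13.0 CPM where it gives Slc25a1 -/+. Mrpl40 gave no check of the labels, since its level in cortex was 17.9 ± 1.52 CPM (SD, n = 9) in wild type and 17.4 ± 1.61 (SD, n = 7) in Mrpl40 het, and in hippocampus 15.6 ± 1.15 (SD, n = 8) and 15.7 ± 1.11 (SD, n = 7). Group names below are therefore the labels' names, and some results are also given without the 6 animals. Calls that change without them are not listed member by member. In hippocampus, markers of dentate granule cells summed to 612 to 1090 CPM in wild type against 246 to 343 CPM in cortex. Wild type replicate 8 stood apart in hippocampus, with the lowest sums among wild type libraries for excitatory neurons (6049 CPM), hippocampal pyramidal cells (777.5 CPM) and dentate granule cells (611.6 CPM). The hippocampus library of Slc25a1 het replicate 3 held 583 CPM of cerebellar markers, against a range of 52.3 to 156.3 CPM in the other hippocampus libraries.

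On GRCm38, all members lie on chromosome 18, the alpha cluster at 36930184 to 37187661, the beta cluster at 37264938 to 37524479 and the gamma cluster at 37661793 to 37841873. A median of 46.5% of an alpha member's exon bases and 55.3% of a gamma member's belong to no other annotated gene on the same strand. The median beta member shares no exon base with such a gene. Genes on the opposite strand were not considered in own exon bases. The 4 read-through rows inside the clusters that have no base of their own, Gm37013, Gm42416, Gm37388 and Gm38182, held 0 counts in all libraries. Levels are compared between members per kilobase of own exon bases. How reads over the shared exons were counted is not given, so the part of those exons in alpha and gamma values was not tested. Pcdha4, whose row has only 494 own bases, Pcdha11 (ENSMUSG00000102206), Pcdhb1 and Pcdhga10 did not pass the filter on low counts, with medians of 4, 2, 1 and 3 counts per library. The other 54 were tested, 12 of alpha, 21 of beta and 21 of gamma.

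The C-type members held the highest levels in 2 of the clusters. Pcdhgc5, which is known to bind GABA-A receptors at synapses, stood first in wild type cortex at 21.6 ± 1.72 CPM per kb of own exon (SD, n = 9) and in hippocampus at 19.8 ± 3.03 (SD, n = 8). It made up 25.4% of the gamma cluster's level per kb in cortex and 21.9% in hippocampus. Pcdhgc3, a brake on Wnt signalling through Axin1, followed at 7.72 ± 0.53 CPM per kb in cortex, and 9.58 ± 0.596 in hippocampus. Pcdhac2, which serotonergic axons need to space themselves, was the highest alpha member at 9.37 ± 0.8 CPM per kb in cortex and 7.16 ± 0.827 in hippocampus, and made up 43.1% and 40.5% of the alpha cluster's level per kb.

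The remaining C-type members were not set apart. Pcdhac1 ranked 5 of 14 in cortex at 1.15 CPM per kb, and Pcdhgc4, which supports the survival of cortical interneurons, ranked 10 of 22 in cortex at 3.24 ± 0.475 CPM per kb and 16 of 22 in hippocampus at 2.43 ± 0.351. The next alpha member after Pcdhac2 was Pcdha12, at 2.33 ± 0.203 CPM per kb in cortex and 1.69 ± 0.27 in hippocampus. At the other end of the tested alpha members stood Pcdha8, at 0.216 and 0.124 CPM per kb.

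The beta cluster had no single leading gene in cortex. Pcdhb20 (4.39 ± 0.279 CPM per kb), Pcdhb17 (4.24 ± 0.336) and Pcdhb9 (4.0 ± 0.417) lay within their spread of each other in wild type cortex. In hippocampus Pcdhb9 came first at 6.09 ± 0.697 CPM per kb, ahead of Pcdhb17 at 4.0 ± 0.384 by more than the SDs, and its share of the beta cluster's level per kb was 16.2% against 11.5% in cortex. Median levels of the tested members per kb were 1.01 CPM in alpha, 1.11 in beta and 3.12 in gamma in wild type cortex, and 0.975, 1.28 and 3.23 in hippocampus.

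**Figure D1:**
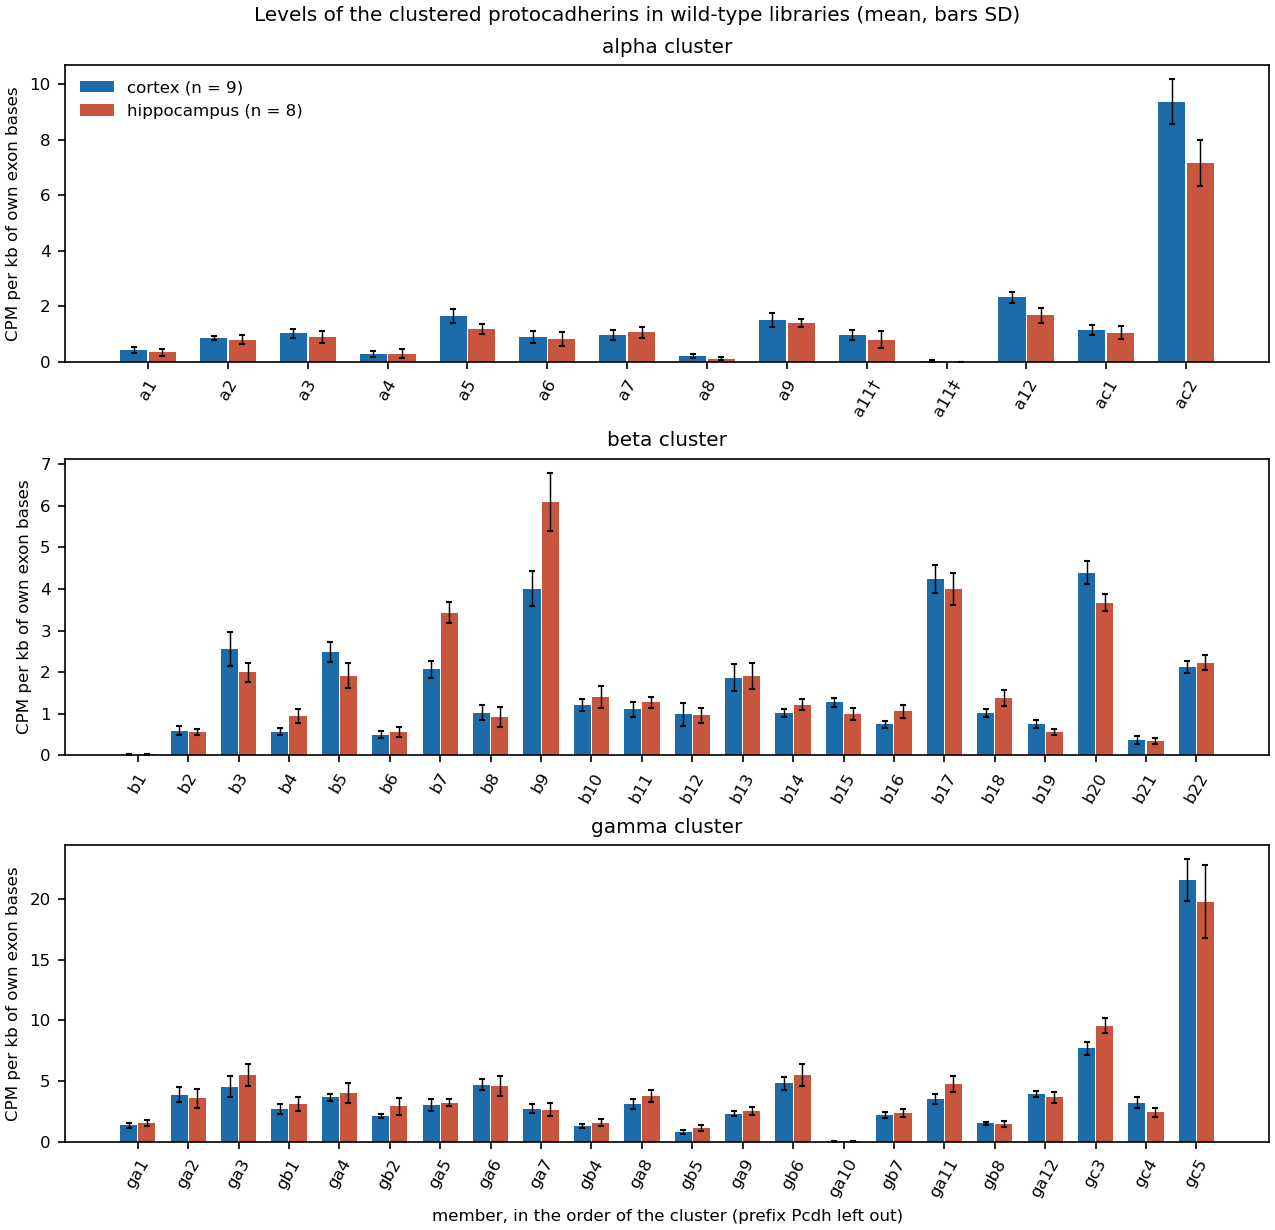
Mean level of each member in wild type cortex (n = 9) and hippocampus (n = 8), in CPM per kb of exon bases that no other gene on the same strand shares. Bars are SDs and members stand in cluster order, one panel per cluster with its own linear axis from 0. Pcdhac2 stands above all other alpha members and Pcdhgc5 above all other gamma members in both tissues, and Pcdhb9 leads the beta cluster in hippocampus; the marks on a11 stand for ENSMUSG00000007440 (dagger) and ENSMUSG00000102206 (double dagger).

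The summed alpha cluster was lower in hippocampus than in cortex. In wild type its members summed to 50.2, 59.1 and 64.0 CPM (lowest, median and highest library) in cortex and to 41.2, 46.7 and 53.0 CPM in hippocampus. The groups overlapped in a narrow band only. The beta cluster summed to 142 ± 5.88 CPM (SD, n = 9) in wild type cortex and 152 ± 9.35 (SD, n = 8) in hippocampus, and the gamma cluster to 284 ± 16.3 and 294 ± 30.8 CPM, with overlapping ranges in each case. Sums are dominated by the highest members, above all Pcdhgc5, and were not tested. In tissue RNA, fewer cells of a type and less RNA per cell cannot be told apart.

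**Figure D2:**
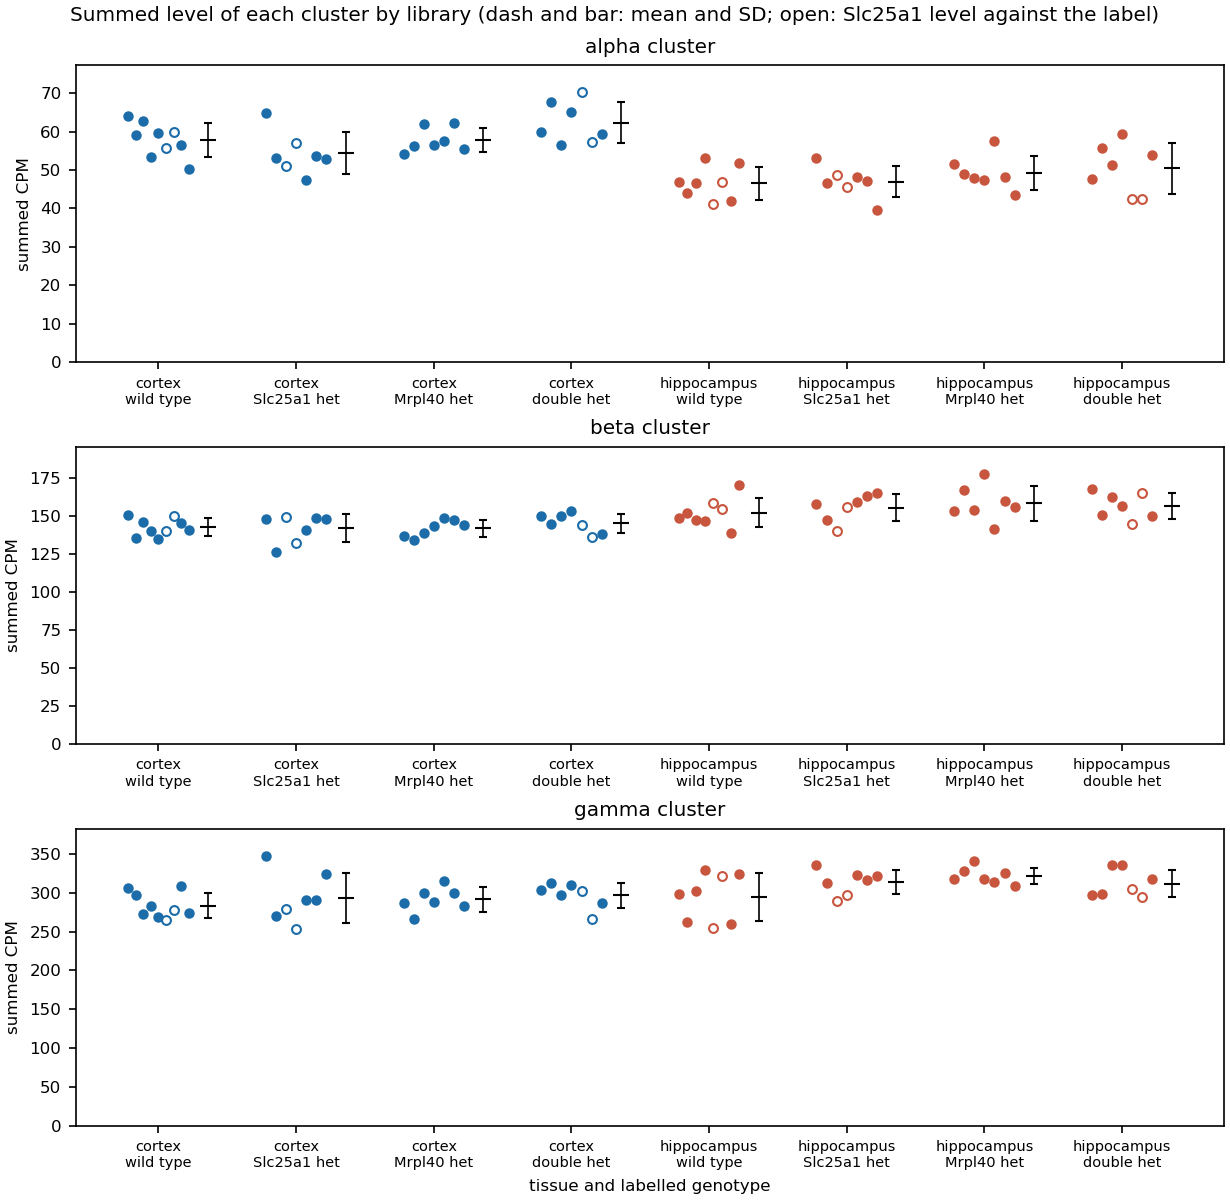
Summed CPM of the alpha, beta and gamma members (one panel each) in every library, by tissue and labelled genotype, with mean and SD beside each group and open points for the 6 animals that go against their labels. Mean alpha sums are lower in hippocampus than in cortex in all 4 genotypes, while the genotypes of a tissue overlap in every panel.

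Hippocampus and cortex of the same animals were then compared, member by member, with the animal as a block. In wild type 25 of 54 members passed the test (edgeR quasi-likelihood, Benjamini-Hochberg adjusted p under 0.05 over all 21354 genes tested), 15 higher and 10 lower in hippocampus. Of all genes tested 60.6% passed, 30.4% higher and 30.1% lower, beside 46.3% of the members tested. In the alpha cluster 4 of 12 were lower and 0 higher (median log2 fold change -0.26), in the beta cluster 7 were higher and 5 lower of 21 (median 0.06), and in the gamma cluster 8 were higher and 1 lower of 21 (median 0.15). The median of all genes tested was 0.01.

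Pcdhb7 rose most among beta members. Its level was 6.25, 6.97 and 8.84 CPM (lowest, median and highest of 9 libraries) in wild type cortex and 10.2, 12.2 and 13.3 CPM in 8 hippocampus libraries. Every hippocampus library lay above every cortex library, and the log2 fold change was 0.77 ± 0.067 (SE, edgeR adjusted p = 4.29e-12). Hippocampus was higher than cortex in 29 of 29 animals of all genotypes.

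Pcdhb9 and Pcdhb4 followed the same pattern. Pcdhb9 was at 10.8, 11.5 and 14.0 CPM in wild type cortex and at 14.9, 18.4 and 21.6 CPM in hippocampus, with a log2 difference of 0.62 ± 0.074 (SE, adjusted p = 5.25e-09 in edgeR). Pcdhb4 was at 1.61, 2.15 and 2.54 CPM against 2.86, 3.3 and 4.51 CPM, with a log2 difference of 0.72 ± 0.1 (SE, edgeR adjusted p = 1.95e-07). Neither gene's groups overlapped, and each was higher in hippocampus in 29 of 29 animals. Pcdhb16, the fourth beta member by size of rise, gained 0.49 on the log2 scale (edgeR adjusted p = 3.08e-05) and was higher in 28 of 29 animals.

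Other beta members were lower in hippocampus. Pcdhb5 was at 6.93, 9.14 and 9.64 CPM in wild type cortex and 5.22, 6.89 and 8.22 CPM in hippocampus, and fell by 0.39 on the log2 scale (edgeR adjusted p = 0.0014). Pcdhb19 fell by 0.4, Pcdhb15 by 0.37 and Pcdhb3 by 0.32, with edgeR adjusted p of 0.000724, 0.000781 and 0.00166. The ranges of the tissues overlapped for these 4 genes, yet hippocampus was higher than cortex in 0 of 8 wild type animals for each of them. Over the 29 animals of all genotypes, hippocampus was higher in 3 for Pcdhb5, 2 for Pcdhb19, 6 for Pcdhb15 and 5 for Pcdhb3.

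Alpha members past the test were lower without exception. Pcdhac2 was at 24.7, 28.0 and 31.9 CPM in wild type cortex and 18.2, 21.4 and 25.3 CPM in hippocampus, with ranges that overlap slightly, and fell by 0.37 on the log2 scale (SE 0.0789, edgeR adjusted p = 0.00014). Pcdha12 fell by 0.46 (SE 0.0834, edgeR adjusted p = 1.15e-05) and was higher in hippocampus in 0 of 29 animals of all genotypes. Pcdha5 fell by 0.44 (edgeR adjusted p = 0.000479). Pcdha8 lay furthest from 0 on the log2 scale, at -0.84 ± 0.27 (SE, edgeR adjusted p = 0.00745), from 2 to 28 counts per library. Pcdhac1 did not pass, at -0.12 ± 0.13.

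In the gamma cluster the C-type members moved apart. Pcdhgc3 was at 23.3, 26.4 and 28.1 CPM in wild type cortex and 28.1, 32.8 and 35.0 CPM in hippocampus, and rose by 0.29 on the log2 scale (SE 0.0558, edgeR adjusted p = 3.32e-05). Hippocampus was the higher tissue in 29 of 29 animals. Pcdhgc4 was at 8.68, 11.7 and 13.6 CPM in cortex, against 7.21, 8.19 and 10.6 CPM in the other tissue, and fell by 0.4 (SE 0.0605, edgeR adjusted p = 5.33e-07). Its groups overlapped across animals, but hippocampus was higher in 0 of 29 animals. Pcdhgc5 did not pass, at -0.12 ± 0.07.

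Among gamma A and B members the calls were all in the direction of hippocampus. Pcdhga11 (log2 fold change 0.45 ± 0.068, edgeR adjusted p = 6.39e-07), Pcdhgb5 (0.46 ± 0.11, adjusted p = 0.000676), Pcdhgb2 (0.43 ± 0.099, adjusted p = 0.000274) and Pcdhga3 (0.32 ± 0.085, adjusted p = 0.00137) showed the largest rises. Pcdhgb2 ranged from 5.23 to 6.47 CPM in cortex and from 5.43 to 10.5 CPM in hippocampus, where its SD of 2.0 CPM was over that of cortex, 0.466. Of 11 gamma A members tested 3 were higher, and of 7 gamma B members 4. Among all genes tested 30.4% were higher and 30.1% lower.

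The same differences were fitted in the 3 heterozygous genotypes, each from its own animals. In Slc25a1 het 19 members were higher and 9 lower in hippocampus (all genes: 60.4% called, 30.5% higher and 29.9% lower), in Mrpl40 het 21 and 10 (60.3%, 30.8% and 29.4%), and in double het 20 and 11 (57.5%, 28.9% and 28.6%). With the same sign in all 4 genotypes, 20 members (37.0%) passed, beside 45.0% of all genes, 14 higher (25.9%, all genes 22.2%) and 6 lower (11.1%, all genes 22.8%) in hippocampus: 2 lower alpha members, Pcdha12 and Pcdhac2; 6 higher and 3 lower beta members; 8 higher and 1 lower gamma members. Pcdhb7 gained 0.93, 0.96 and 0.96 on the log2 scale in Slc25a1 het, Mrpl40 het and double het. Pcdhgc4 had log2 values of -0.45, -0.6 and -0.53, and Pcdhgc3 of 0.38, 0.3 and 0.35. No alpha member passed as higher in any genotype, where 28.9% to 30.8% of all genes passed as higher in each. Of the 54 members 15 passed in none. The share of all genes passing in none was not counted, so these 15 are not set against it.

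**Figure D3:**
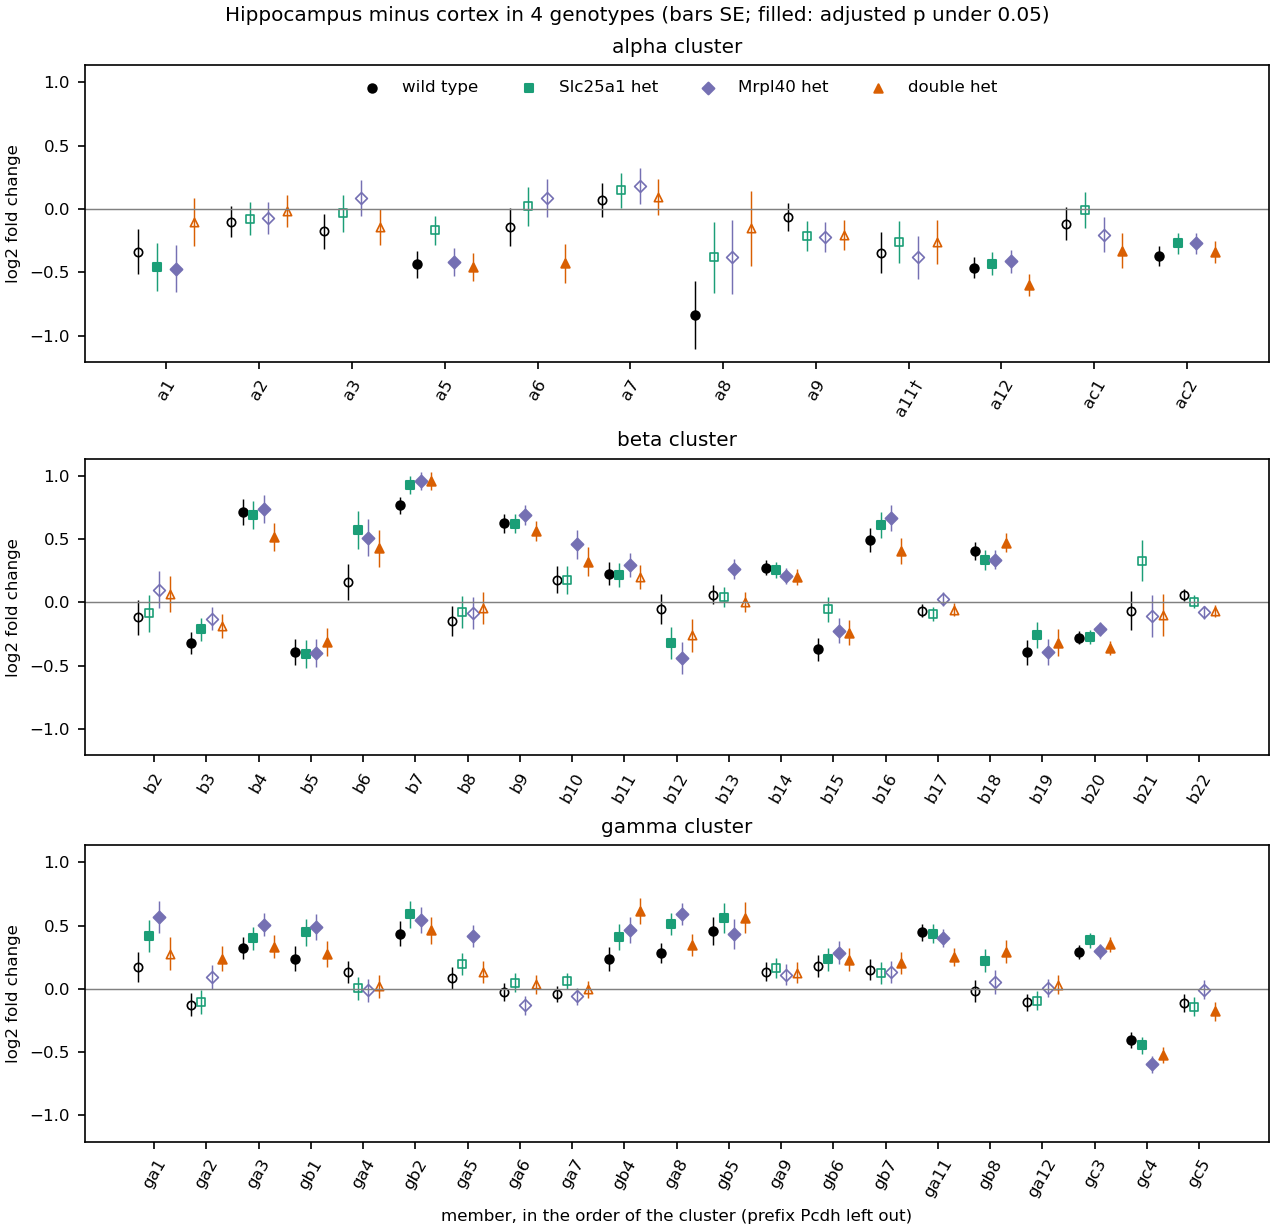
Log2 fold change of hippocampus against cortex for the 54 tested members in cluster order, one panel per cluster, with SE bars and a symbol per genotype, filled where the edgeR adjusted p is under 0.05. With filled symbols in all 4 genotypes, 14 members lie above 0, among them Pcdhb4, Pcdhb7, Pcdhb9, Pcdhb16, Pcdhb18 and Pcdhgc3. Below 0 lie 6, among them Pcdha12, Pcdhac2 and Pcdhgc4. The dagger marks ENSMUSG00000007440.

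Markers of several cell types differed between wild type tissues too, where 60.6% of all genes passed the test, 30.4% higher and 30.1% lower in hippocampus. Interneuron markers were lower in hippocampus for 9 of 10 genes (summed 788 to 1010 CPM in wild type cortex, 601 to 810 in hippocampus), dentate granule cell markers were higher for 5 of 6 and lower for 1, and pyramidal cell markers of the hippocampus were higher for 5 of 7. Astrocyte markers were higher for 5 and lower for 1 of 10, excitatory neuron markers higher for 4 and lower for 3 of 8, and thalamus markers higher for 3 and lower for 2 of 6. Markers of choroid plexus (3 of 7 tested higher), meninges and fibroblasts (3 of 9), oligodendrocyte precursors (2 of 5) and the cerebellar list (2 of 7) rose in part, and serotonergic markers were 2 higher and 1 lower of 3 tested. Those of oligodendrocytes (10 tested), microglia (9) and endothelium and pericytes (10) gave 0 calls in edgeR, with 2, 1 and 0 genes at an unadjusted p under 0.05. The part of cell composition in the members' differences was not tested.

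Lists of the wider pathway were counted between wild type tissues in the same way, where 60.6% of all genes passed, 30.4% higher and 30.1% lower. All 12 non-clustered protocadherins passed, 6 higher and 6 lower, led by Pcdh17 (log2 fold change 1.35), Pcdh7 (-1.82) and Pcdh10 (-1.39). Of 12 genes of CTCF, cohesin and its loaders, which shape promoter choice in the clusters, 8 were higher in hippocampus and 1 lower (median 0.21), with Stag1 at 0.49, Pds5b at 0.39 and Wapl at 0.35. Among 16 genes of silencing and DNA methylation, 7 were higher and 6 lower, and Dnmt3a (-0.39), Tet2 (-0.47) and Dnmt1 (-0.34) were among the lower. Cytoplasmic partners were higher for 6 and lower for 3 of 11, with Ptk2b, a kinase that gamma tails bind, at 1.34. The WAVE complex, which alpha tails recruit to actin, was higher for 6 and lower for 2 of 9, led by Cyfip1 at 0.8, and neuroligins and neurexins were lower for 4 and higher for 1 of 6.

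Genotypes were compared within each tissue, with all 4 genotypes in 1 fit; the comparisons with wild type share its libraries. No member passed the edgeR test at an adjusted p under 0.05 in cortex. In cortex 0.0% of 20394 genes passed in Slc25a1 het against wild type, 0.0294% in Mrpl40 het and 0.0686% in double het, while 2, 3 and 4 members had an unadjusted p under 0.05. These are 3.7%, 5.6% and 7.4% of the members, beside 3.17%, 6.94% and 10.9% of all genes. Medians of the members were 0.00, -0.02 and 0.01 on the log2 scale, beside 0.00, 0.00 and 0.00 for all genes. DESeq2 called 0 members in each of the 3 comparisons.

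The smallest p-values in cortex belonged to different genes. Pcdha5 was at 2.88, 3.94 and 4.93 CPM in wild type (lowest, median and highest library) and 2.67, 2.99 and 3.75 CPM in Slc25a1 het. The groups overlapped, and the log2 fold change was -0.35 ± 0.11 (SE, edgeR adjusted p = 1.0). Pcdhb21 had the next smallest p in that comparison, with a log2 value of -0.34. Pcdhb22 was at 11.6, 13.2 and 14.5 CPM in wild type, 13.7, 14.6 and 15.8 CPM in Mrpl40 het and 13.2, 14.5 and 15.3 CPM in double het. These groups overlapped too, with log2 fold changes of 0.17 (adjusted p = 0.354) and 0.13 (adjusted p = 0.285) against wild type. Pcdhga4 in Mrpl40 het (0.18, adjusted p = 0.702) and Pcdhgb4 in double het (-0.27, adjusted p = 0.266) were the others named by the rule.

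Double het cortex was also set against each single het and against the sum of their effects. Against Slc25a1 het 0.0588% of all genes passed, and Pcdha5 (log2 fold change 0.37, adjusted p = 0.219) and Pcdhac2 (0.23, adjusted p = 0.219) had the smallest p among members. Against Mrpl40 het 0.0049% of genes passed, with Pcdhb2 (0.34, adjusted p = 0.67) and Pcdha12 (0.23, adjusted p = 0.67) nearest among members. In the interaction, which takes both single effects from that of double het, 0.0% of genes passed, and Pcdha5 (0.47, adjusted p = 0.731) and Pcdha12 (0.36, adjusted p = 0.82) were nearest. None of these member values passed the edgeR test, and DESeq2 called 0. An unadjusted p under 0.05 was found for 5, 3 and 3 members (9.3%, 5.6% and 5.6%), beside 9.92%, 6.94% and 5.35% of all genes.

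In hippocampus 0 of 54 members passed the edgeR test in any comparison of genotypes. DESeq2 called 1 member, Pcdhga5 in Mrpl40 het against wild type, and 0 in the other comparisons. Of 20162 genes 0.0% passed in Slc25a1 het against wild type, 0.00496% in Mrpl40 het and 0.00992% in double het, and 5, 4 and 2 members had an unadjusted p under 0.05, which is 9.3%, 7.4% and 3.7% of them beside 7.77%, 8.19% and 5.28% of all genes. Against Slc25a1 het, against Mrpl40 het and in the interaction, double het gave 0.0% of all genes in each case, with 2, 4 and 5 members at an unadjusted p under 0.05 (all genes: 9.04%, 4.68% and 3.39%; members: 3.7%, 7.4% and 9.3%). Log2 values against wild type were above 0 for 44, 33 and 40 of 54 members in Slc25a1 het, Mrpl40 het and double het (81.5%, 61.1% and 74.1%, beside 51.9%, 47.1% and 48.6% of all genes), with medians of 0.09, 0.05 and 0.06. Without wild type replicate 8, 37, 33 and 41 members were above 0 and the medians were 0.07, 0.03 and 0.04. In that setting the beta median went from 0.07 to 0.03 in Slc25a1 het, from 0.05 to 0.02 in Mrpl40 het and from 0.05 to 0.03 in double het, and the gamma median from 0.10 to 0.09, from 0.10 to 0.07 and from 0.07 to 0.04. In Slc25a1 het all 21 tested gamma members had a positive log2 value, with a median of 0.10 beside 0.00 for all genes. Of them 18 were positive without wild type replicate 8, 19 without the 6 animals, and 20 with length and GC offsets. Gamma members are not separate observations of a genotype. Over the 29 hippocampus libraries, their deviations from the group mean correlated with a median r of 0.19, above 0 in 166 of 210 pairs. The comparisons with wild type share its 8 libraries, whose summed gamma level ranged from 255 to 329 CPM against 290 to 336 CPM in Slc25a1 het. Replicate 8 was not the lowest of these wild type libraries. Summed gamma was 255.3 CPM in replicate 6, 260.2 CPM in replicate 8 and 262.7 CPM in replicate 3. Replicate 6 is among the 6 animals that go against their labels, and no fit left out replicate 3.

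Pcdhga5, a gamma A member, came nearest to the threshold. In hippocampus of wild type replicates 2 to 9 it was at 8.15, 7.49, 7.96, 8.36, 8.37, 9.27, 7.21 and 9.06 CPM, and in Mrpl40 het replicates 1 to 7 at 12.2, 9.87, 10.8, 10.6, 11.1, 11.1 and 9.64 CPM. All 7 Mrpl40 het libraries lay above all 8 wild type libraries. The log2 fold change was 0.38 ± 0.072 (SE, 95% interval 0.24 to 0.52), ranked 3 by p among all genes, with an edgeR adjusted p of 0.0679, so it did not pass.

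The other groups did not share this level. Slc25a1 het ranged from 7.57 to 9.26 CPM in hippocampus, with a log2 value of 0.11 ± 0.073 against wild type, and double het from 7.52 to 11.2 CPM, with 0.10 ± 0.073. Both ranges overlapped wild type, and only replicate 3 of double het lay within the range of Mrpl40 het. Double het minus Mrpl40 het gave -0.28 ± 0.074 (edgeR adjusted p = 0.958) and the interaction -0.38 ± 0.1 (adjusted p = 0.999).

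The call on Pcdhga5 depended on the method, and its adjusted p moved with the libraries. DESeq2 passed it (log2 0.39, adjusted p = 0.00211), as did edgeR with offsets for gene length and GC content (0.38, adjusted p = 0.0347). Without wild type replicate 8, which had the lowest Pcdhga5 level, the edgeR value was 0.35 with an adjusted p of 0.243, and without the 6 animals that go against their labels 0.41 with 0.0804. Sums of hippocampal pyramidal cell markers were 777.5 to 1407 CPM in wild type and 1157 to 1491 CPM in Mrpl40 het, and choroid plexus markers 23.9 to 34.6 and 27.2 to 86.9 CPM. Their part in the Pcdhga5 value was not tested.

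In cortex Pcdhga5 did not separate the groups. It was at 6.48, 7.21 and 10.0 CPM in wild type and at 7.32, 8.09 and 8.88 CPM in Mrpl40 het, and the log2 difference was 0.06 ± 0.081 (adjusted p = 0.908 in edgeR). The difference between tissues in Mrpl40 het minus that in wild type was 0.33 ± 0.12 (edgeR adjusted p = 0.829), so a difference between the tissues' responses was not shown.

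**Figure D4:**
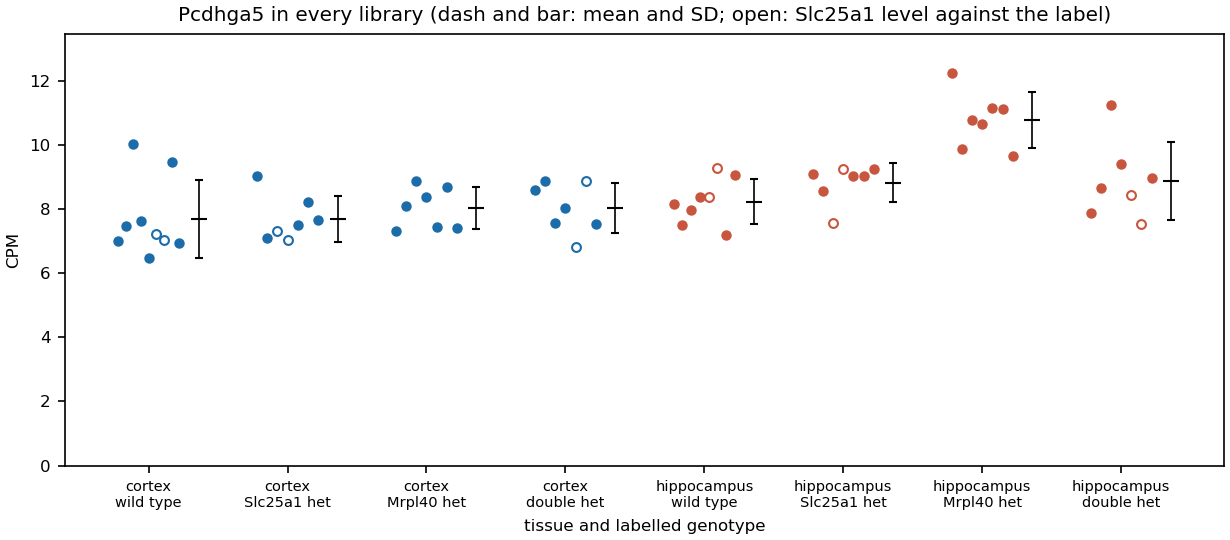
CPM of Pcdhga5 in each of the 59 libraries by tissue and labelled genotype, on an axis from 0, with mean and SD beside each group and open points for the 6 animals that go against their labels. The 7 Mrpl40 het hippocampus libraries sit between 9.64 and 12.2 CPM, above the 8 wild type libraries at 7.21 to 9.27 CPM, while the cortex groups overlap.

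Other hippocampal values stayed further from the threshold. Pcdhgc5 was at 70.9, 93.0 and 107.8 CPM in wild type and at 101.0, 106.0 and 111.9 CPM in Mrpl40 het, a log2 difference of 0.21 ± 0.073 (adjusted p = 0.587 in edgeR). The Mrpl40 het libraries lay at the upper end of the wild type range and past it. In Slc25a1 het Pcdhb15 (0.28, adjusted p = 0.593) and Pcdhb6 (0.33, adjusted p = 0.612) had the smallest p, and in double het Pcdhga2 (0.30, adjusted p = 0.906) and Pcdhb20 (-0.12, adjusted p = 0.934). Pcdhga8 was the nearest member in double het against Slc25a1 het (-0.28, adjusted p = 0.479) and the next in the interaction after Pcdhga5 (-0.45, adjusted p = 0.999), and Pcdhb13 followed in double het against Slc25a1 het (-0.23, adjusted p = 0.531) and against Mrpl40 het (-0.3, adjusted p = 0.958).

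No member's tissue difference changed with genotype by the test. The share of all 21354 genes called was 0.0% for Slc25a1 het and Mrpl40 het and 0.0234% for double het, each against wild type, with 1, 5 and 3 members at an unadjusted p under 0.05 (1.9%, 9.3% and 5.6%, beside 6.0%, 5.83% and 5.03% of all genes). DESeq2 called 0 members in these 3 comparisons. The nearest were Pcdhb15 (0.32, adjusted p = 0.816) and Pcdhb6 (0.41, adjusted p = 0.829) in Slc25a1 het, Pcdhga8 after Pcdhga5 in Mrpl40 het (0.31, adjusted p = 0.829), and Pcdhga2 (0.36, adjusted p = 0.84) and Pcdhgb4 (0.38, adjusted p = 0.885) in double het. In the pathway lists no gene passed in any comparison of genotypes, and Ptk2 in double het cortex had the smallest adjusted p against wild type at 0.186, with a log2 value of 0.17.

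Animals differed from each other within a group, in part alike in their tissues. Over 29 animals the deviation from the group mean (log2 CPM, members with a mean of at least 20 counts) in cortex and hippocampus correlated with a median r of 0.2 over 53 members, beside 0.12 over 17376 genes of the same minimum. By cluster the median r was 0.12 over 11 alpha members, as for all genes, 0.25 over 21 beta members and 0.27 over 21 gamma members. The paired libraries share the animal and its labelled group, and each group mean is taken from the same libraries. Pcdhga7 had the highest value (r = 0.66, Spearman's rho 0.6), Pcdhga9 followed (0.57, rho 0.45), and Pcdhga5 had the lowest (-0.39, rho -0.39). These are the ends of 53 values and were not tested. With the outermost genes at both ends left out, r over the 17376 genes ran from -0.25 to 0.5. For Pcdhga9, Slc25a1 het replicate 1 lay 0.64 above its group in cortex and 0.58 in hippocampus on the log2 scale, far from the other animals. Within a group members varied by a median SD of 0.19 on the log2 scale, against 0.13 for all genes of that minimum. Single members ran from 0.086 for Pcdhb20 to 0.37 for Pcdha1, a gene of low level. The 2 sets were not matched for level, and the part of counting noise was not tested, so a greater spread between animals is not shown.

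**Figure D5:**
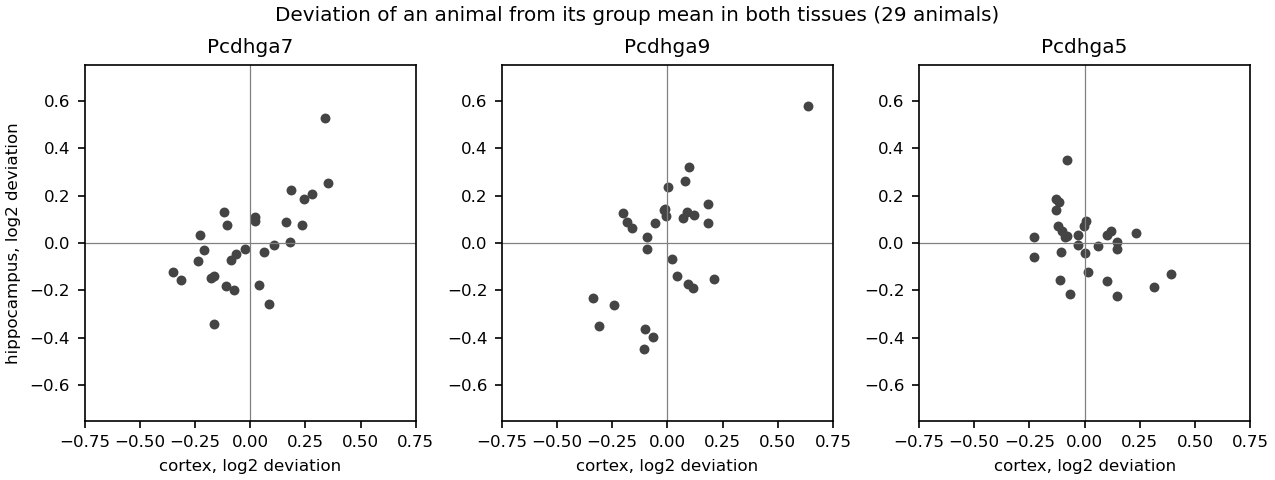
Log2 deviation of each of 29 animals from its group mean in cortex (horizontal axis) and hippocampus (vertical axis) for Pcdhga7, Pcdhga9 and Pcdhga5, 1 point per animal. Points for Pcdhga7, the highest r of 53 members, run from lower left to upper right (r = 0.66). Those for Pcdhga9 rest in part on 1 animal at 0.64 and 0.58. Pcdhga5 has the lowest r of the 53 (-0.39), and neither end was tested.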

How the data were processed

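The authors deposited raw counts per gene, which were used without change. The submitters' processing notes name FastQC, HISAT2, featureCounts and DESeq2 and the builds mm39 and GRCm39, with no versions. The annotation, the use of strand and the treatment of reads over several genes are not given by the labels or files, so antisense genes cannot be told apart from members they overlap. Of rows of at least 200 exon bases, 70.3% of those with no base of their own held 0 counts, against 18.7% of the others. The authors' normalized table was not used. Exon lengths, GC content and coordinates were taken from GENCODE vM21 on GRCm38, where 90.8% of row identifiers were found.

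Counts were tested with edgeR 4.0.16 in R 4.3.3 (TMM, default filter on low counts, quasi-likelihood with robust dispersion), with Benjamini-Hochberg adjustment over all genes and a threshold of 0.05. Common biological coefficients of variation were 0.0834 in cortex and 0.111 in hippocampus. Genotypes were fitted per tissue, and tissues over 29 animals with the animal as a block. Libraries of the same animal shared deviations (median correlation 0.125 over 5000 genes, against -0.00683 for different animals). On simulated data, at folds of 1.2, 1.5 and 2 the test recovered 37.3%, 68.7% and 84.8% of changed genes for Mrpl40 het against wild type in hippocampus, over 20162 genes, and 35.8%, 65.7% and 81.8% for the wild type tissues, over 21354 genes. The simulation changed 66 or 67 genes per fold, gave each other gene 1 mean level in all libraries, and held no animal effect. Between the real wild type tissues 60.6% of genes passed, so the simulated recovery does not give the power of that comparison. Deviations used log2 of CPM plus 0.1. Intervals are 95%. Alternatives used DESeq2 1.42.0 and other filters, scalings and libraries. Figures used Python 3.11.15, numpy 2.4.6, pandas 2.3.3 and matplotlib 3.10.9.

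Members and gene lists were chosen with earlier results of these data known. Named were Pcdhga5, the C-type members, per cluster the 4 largest rises and falls past the test between wild type tissues and the highest and lowest member per length, and in other comparisons up to 10 members past the test or the 2 smallest p. Other members were named after their values were seen. Of each list up to 3 genes past the test were taken by p. The tissue result of 1 pathway list is not reported here. Separate animals stand behind the replicates, per the labels. No sequences are shown.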

Additional observations from a re-analysis of the deposited data

Results flagged for a closer look

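Of 192 group values examined, 8 had 1 library far from the others of its group, and chance gives about 1 in 20 groups. In hippocampus of Slc25a1 het, replicate 3 was the low library for Pcdhga5 (7.57 CPM, next 8.57) and for Pcdhgc5 (80.2 CPM, next 97.5), and the same library held 583 CPM of cerebellar markers, whose part was not tested. In hippocampus of double het, replicate 3 was high for Pcdhgb2 (12.2 CPM, next 8.12) and low for Pcdhga11 (9.93 CPM, next 12.5). Pcdhb19 was high in hippocampus of Mrpl40 het replicate 4 at 5.38 CPM (next 3.97). Pcdhgb2 was high in cortex of Mrpl40 het replicate 1 at 7.35 CPM (next 6.1). In wild type cortex Pcdhb16 was low in replicate 4 at 3.06 CPM (next 3.69) and Pcdhb7 high in replicate 1 at 8.84 CPM (next 7.52).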

How the results depend on the processing

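The count of members past the test stayed within 1.5 times under all alternatives run for the tissue comparisons: 24 to 29 (wild type), 23 to 29 (Slc25a1 het), 29 to 32 (Mrpl40 het) and 22 to 32 members (double het). The lowest of these, 22, is the count without the 6 animals that go against their labels. Among genotype comparisons the count moved from 0 only in hippocampus of Mrpl40 het against wild type, to 1 with DESeq2 and to 1 with length and GC offsets, and in both cases the gene was Pcdhga5. The cause was not tested. Counts over all genes moved more, from 14 to between 2 and 92 in double het cortex against wild type and from 1 to between 0 and 11 in hippocampus of Mrpl40 het. Pcdhga5 turned from 0.0481 to -0.0257 on the log2 scale in the tissue difference of double het minus wild type without wild type hippocampus replicate 8, an alternative chosen after seeing the data. In Slc25a1 het the tissue difference of Pcdhga5 was 0.197 in the main fit and did not pass. It passed under 4 alternatives (edgeR adjusted p 0.031 to 0.0439). These dropped the animal pairing, fitted only the genotype compared, left out the hippocampus library with high cerebellar markers (0.226), or left out wild type hippocampus replicate 8. Per whole exon length Pcdhac2 stood at 4.82 CPM per kb in wild type cortex and 3.68 in hippocampus, and Pcdhgc5 at 13.0 and 11.9, each still first in its cluster, since more bases then divide the same counts.

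In genotype comparisons same-numbered libraries come from different animals. Those of different genotypes correlated with a median r of 0.116 in cortex and 0.0608 in hippocampus, beside 0.125 for the tissues of the same animal. Of 28 cortex libraries 7 were closest to their own number, and of 27 hippocampus libraries 3. Whether a replicate number stands for a shared batch is not given by the labels and was not tested. With the replicate block 0 members passed in each genotype comparison, and Pcdhga5 in hippocampus of Mrpl40 het had an edgeR adjusted p of 0.466. Without the animal pairing the tissue comparisons gave 24, 24, 29 and 28 members. Members with under 30 counts per library, such as Pcdha8, are limited by depth.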
